A study of Homo sapiens with 6 samples.

Results

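The cytosolic ring chaperonin CCT, also called TRiC, was described here through the transcripts of its 9 human genes, TCP1, CCT2, CCT3, CCT4, CCT5, CCT6A, CCT6B, CCT7 and CCT8. They were taken as a named family, from probe sets whose platform annotation names exactly 1 gene, and all 9 were found among the 17534 genes tested, on 26 of 47481 probe sets. The glucocorticoid-resistant multiple myeloma line MM.1R had been given epirubicin hydrochloride (3 Affymetrix PrimeView arrays) or infected with the control short hairpin vector shCtrl (3 arrays). The drug arrays are labelled with the drug alone, so a vector effect and a drug effect cannot be told apart, and neither dose, nor length of treatment, nor separate cultures behind the arrays are given in the labels. The spread between arrays, and any p-value that rests on it, may therefore be technical, and in bulk samples fewer cells of a kind and less RNA per cell cannot be told apart. The family was selected on log2 fold changes of this same comparison, epirubicin minus shCtrl, so the drug differences of its members are given as a description with their errors and carry no test.

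CCT folds newly made proteins in the cytosol. A pair of stacked rings, each built from 8 different subunits in a fixed order, closes over the client and opens again as ATP is hydrolysed. Its obligate clients are actin and tubulin, and many proteins with WD40 propellers, such as the mitotic activators of the anaphase-promoting complex, also pass through it. Prefoldin hands unfolded chains to the ring, and phosducin-like proteins work with it as cofactors. Epirubicin is an anthracycline that traps topoisomerase II on DNA. Plasma cells, the origin of myeloma, make and secrete large amounts of protein.

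Values below are the authors' deposited log2 expression values, so that a difference of 1 is a doubling. A gene is read from its brightest probe set over the 6 arrays unless stated. Calls required an adjusted p under 0.05 from limma over all 17534 genes and a fold of at least 1.3, which is 0.38 on the log2 scale. By that rule 376 genes (2.14%) were lower and 765 (4.36%) higher. Of 10 plasma cell markers 8, among them SDC1 and TNFRSF17, lay above 10 in both groups. CD38 did not, at 5.25 in epirubicin arrays and 6.42 in shCtrl arrays, nor did FCRL5, at 6.11 and 6.04. CD38 and IRF4 were called lower, at -1.18 and -0.49. Without the fold limit 4 of these markers were lower and 2 higher, POU2AF1 (0.25) and SLAMF7 (0.23). The median over the plasma cell markers was -0.06. Known responders were far apart between the groups, with CDKN1A, which encodes p21, at 11.95 ± 0.01 in epirubicin arrays and 10.07 ± 0.01 in shCtrl arrays (SD, n = 3 each). MDM2, the ubiquitin ligase of p53, differed by 1.08, CCNB1, the mitotic cyclin B1, by -1.79, and TOP2A, the drug's target, by -0.40. Of 10 myeloid markers 3 were called higher, ITGAM (3.75), CD68 (0.63) and S100A9 (0.53), and 7 were not called. The list's median was 0.13. Its summed log2 level was 45.53 to 46.23 in epirubicin arrays and 40.24 to 40.47 in shCtrl arrays, with ITGAM as the largest difference. CD14, LYZ, FCN1, S100A8 and CD163 were dim in both groups, under each array's lower quartile. The part of this list in the chaperonin values was not tested. Of 10 T and NK cell markers and 8 stromal markers, 0 were called in either direction.

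The 8 genes taken as the ring, with CCT6A in the zeta place, were all lower with epirubicin. Their log2 fold changes were -0.50 to -0.16, which left 71.0% to 89.3% of the shCtrl level. Their mean difference was -0.32, or 80.1% of the shCtrl level, and for all 8 genes every epirubicin array lay below every shCtrl array. Over all genes tested, 20.1% showed that separation, and 23.8% the opposite one, which CCT6B had. The call rule with its 1.3-fold limit took 2 of the 9 genes as lower, TCP1 and CCT3, and 0 as higher, beside 2.14% and 4.36% of all genes. Without the fold limit it took 8 as lower and 1, CCT6B, as higher, beside 13.5% and 15.6%. The median log2 fold change was -0.26 over the 9 genes and 0.02 over all genes. The lower count hangs on the fold limit: it was 4 with each array centred on its median and 1 after quantile normalization, while every sign was kept. As the family was proposed with this contrast in view, nothing is read from these counts.

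TCP1, which encodes CCT1 (alpha), the subunit that gave the complex its older name, had the largest difference. Its values were 9.81, 9.94 and 9.91 in epirubicin arrays, against 10.40, 10.35 and 10.39 in shCtrl arrays, a difference of -0.50 (SE 0.04, 95% interval -0.60 to -0.39). The groups were far apart on this probe set, the lowest shCtrl array lying well above the highest epirubicin array. Only 0.987% of all genes had a more negative log2 fold change. The gene's other probe set, dimmer at 7.84 over the 6 arrays, differed by -0.36 (SE 0.05 in the fit over all probe sets, from which all values of second probe sets are taken).

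CCT3, the gamma subunit, stood at 11.02, 10.98 and 11.01 in epirubicin arrays, against 11.44, 11.34 and 11.40 in shCtrl arrays, which is -0.39 (SE 0.04). All 5 of its probe sets were called lower, between -0.44 and -0.38, so the gene gave the same picture wherever it was read. Leaving out epirubicin replicate 2 or shCtrl replicate 1 moved CCT3 under the fold limit, at -0.38 and -0.37, and reduced the members called lower to 1.

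CCT5 and CCT6A lay just short of the fold limit. CCT5, the epsilon subunit, had 11.16, 11.13 and 11.15 in epirubicin arrays, against 11.55, 11.49 and 11.51 in shCtrl arrays (-0.37, SE 0.03). Its other 3 bright probe sets differed by -0.48, -0.42 and -0.41, all called lower. CCT6A, the zeta subunit in most tissues, had 9.99, 10.01 and 10.02 in epirubicin arrays, against 10.36, 10.36 and 10.40 in shCtrl arrays (-0.37, SE 0.03), on a single probe set. In both genes the arrays of a group lay closer together than the groups did. They are the members nearest to the fold limit from below, as CCT3 is from above.

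CCT2, CCT4 and CCT7, the beta, delta and eta subunits, formed a band between -0.26 and -0.25. CCT4 had 11.54, 11.49 and 11.52 in epirubicin arrays, against 11.74, 11.84 and 11.73 in shCtrl arrays (-0.26, SE 0.04), and its 4 probe sets ran from -0.30 to -0.26. CCT7 had 11.00, 10.97 and 10.99 in epirubicin arrays, against 11.25, 11.25 and 11.23 in shCtrl arrays (-0.26, SE 0.03). CCT2 had 10.32, 10.41 and 10.42 in epirubicin arrays, against 10.64, 10.61 and 10.65 in shCtrl arrays (-0.25, SE 0.04). The band is a matter of probe choice for CCT2: its second probe set, at 9.72 in epirubicin arrays and 10.11 in shCtrl arrays, differed by -0.39 (SE 0.04) and was called lower.

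CCT8, the theta subunit, had the smallest difference of the 8. Its values were 11.82, 11.82 and 11.81 in epirubicin arrays, against 11.98, 11.96 and 11.99 in shCtrl arrays, a difference of -0.16 (SE 0.03, 95% interval -0.23 to -0.09). Here too the groups did not overlap, since the arrays of each group were nearly identical. A probe set that the annotation gives to CCT8 and its pseudogene CCT8P1 together, and that was not used for the gene, stood at 10.03 in epirubicin arrays and 10.22 in shCtrl arrays (-0.20, SE 0.03).

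CCT6B differed in the other direction. It is a second zeta gene, known for its expression in testis. Its only probe set had 6.15, 6.22 and 6.06 in epirubicin arrays, against 5.79, 5.77 and 5.89 in shCtrl arrays, which is 0.33 higher (SE 0.05, 95% interval 0.20 to 0.46) or 1.25-fold. All 3 epirubicin arrays lay above all 3 shCtrl arrays. The probe set is dim, close to 5.54, the median of all values, so without detection calls it is not known how much of its signal is transcript. It fell short of the fold limit.

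**Figure D1:**
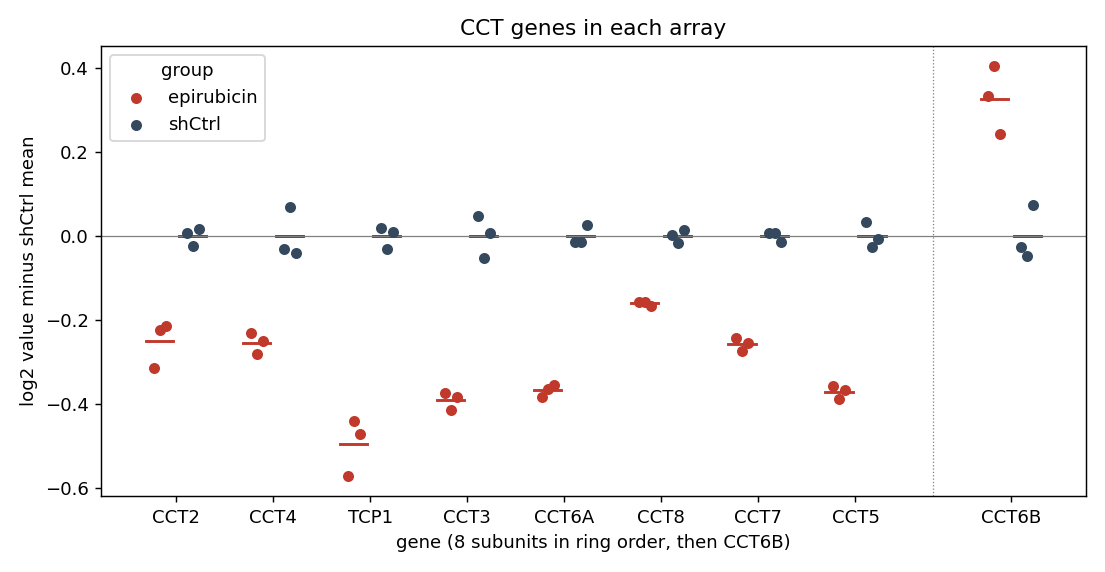
Log2 value of each CCT gene in each array minus the gene's mean over the shCtrl arrays (vertical axis), with epirubicin points left of shCtrl points, bars at group means (n = 3 arrays), 8 subunits in ring order and CCT6B at the right. All epirubicin points of the 8 subunits lie below the shCtrl points, from TCP1 (mean -0.50) to CCT8 (-0.16), and those of CCT6B lie above (0.33).

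How evenly the ring moved was described over the 8 subunits with CCT6A in the zeta place. The SD of their log2 fold changes was 0.11, against standard errors of 0.03 to 0.04 for a single subunit. Over all 9 genes, with CCT6B and its opposite sign, the SD was 0.24. With the standard errors taken out, the SD over the 8 was 0.10. The 8 subunits thus shared a direction, and on their brightest probe sets the sizes of the changes were spread by more than the error between arrays. That error leaves out the choice of probe set. Bright probe sets ran from -0.50 to -0.36 for TCP1 and from -0.39 to -0.25 for CCT2, but only from -0.30 to -0.26 for CCT4. With the mean of each gene's probe sets the SD was 0.10. The part of probe choice in the spread was not tested. In each epirubicin array TCP1 was the lowest subunit relative to its shCtrl mean and CCT8 the highest, at -0.57 and -0.16 in replicate 1, -0.44 and -0.16 in replicate 2, and -0.47 and -0.17 in replicate 3. The mean over the ring was -0.33, -0.32 and -0.31 in these arrays. TCP1 varied more between the arrays than the ring mean did, and CCT8 did not.

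The log2 ratio between a pair of subunits has no meaning as a level on arrays, since probe sets differ in brightness, but its change between groups has. Of the 28 pairs, 19 changed by more than 0.1 and 7 by more than 0.2, and the median change was 0.12. Each of the 7 largest involved TCP1 or CCT8. The TCP1 to CCT8 ratio changed most, by -0.33 (SE 0.04), then TCP1 to CCT2, CCT4 and CCT7, each by -0.24 (SE 0.02, 0.07 and 0.05). Among CCT3, CCT5 and CCT6A no ratio changed by more than 0.02, and among CCT2, CCT4 and CCT7 none by more than 0.00, with standard errors of 0.01 to 0.06. Read from the brightest probe sets, the ring thus had a step of 3 genes between -0.39 and -0.37 and a step of 3 at -0.26 to -0.25, with TCP1 below and CCT8 above them. The steps are a description of these probe sets, chosen after the values were seen, and other probe sets would place genes differently: the second of CCT2 (-0.39) lies in the lower step, that of TCP1 (-0.36) is not below it, and the other 3 bright ones of CCT5 (-0.48, -0.42 and -0.41) are.

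Changes were also set out by position in the ring. In the accepted arrangement the subunits follow each other as CCT2, CCT4, TCP1, CCT3, CCT6A, CCT8, CCT7 and CCT5. The median change of the log2 ratio was 0.11 over the 8 neighbouring pairs and 0.12 over the other pairs. TCP1, CCT2, CCT4 and CCT5, which bind ATP strongly and sit together on one side, had a mean log2 fold change of -0.35, with a range of -0.50 to -0.25. CCT3, CCT6A, CCT7 and CCT8, which bind it weakly, had -0.29, with a range of -0.39 to -0.16. Per array, the mean of the strong side minus that of the weak side was -0.22 ± 0.03 in epirubicin arrays and -0.17 ± 0.01 in shCtrl arrays (SD, n = 3 each), a change of -0.05. The ranges of the members of both sides overlapped.

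The 8 subunits have 25 probe sets, of which 22 lay above 7 over the 6 arrays. On all 22, every epirubicin array was below every shCtrl array, with differences from -0.50 to -0.14. Of all genes, read from their brightest probe sets, 20.1% showed that separation, and the share over all probe sets was not counted. Of the 22, 10 were called lower, beside 2.62% of all probe sets. That share includes dim probe sets (the median of all values was 5.54), and the share among bright ones was not counted. As the family was selected on this contrast, nothing is read from the 10. No probe set of the 9 genes was called higher (0 of 26), beside 3.65% of all. The 3 bright CCT8 probe sets differed by -0.17 to -0.14, and the 19 bright probe sets of the other subunits by -0.50 to -0.25, with no overlap between these ranges. CCT8 thus had the smallest differences on each of the 3 bright probe sets that the annotation gives to it alone. All 3 carry an a or x mark in their ID, and whether they read CCT8 alone was not tested. Brightness moved with the change: over the 22 bright probe sets the Pearson correlation of level and log2 fold change was 0.56, and over the 8 genes it was 0.65, CCT8 being the brightest and having the smallest difference. These points share arrays, and probe sets of a gene share target sequence. The part of brightness in the order of the subunits was not tested. The remaining 3 probe sets were dim, 2 of CCT5 at 6.66 and 4.87 (-0.27 and -0.10) and 1 of CCT8 at 4.63 (-0.04), and at the 2 dimmest of these the groups overlapped.

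**Figure D2:**
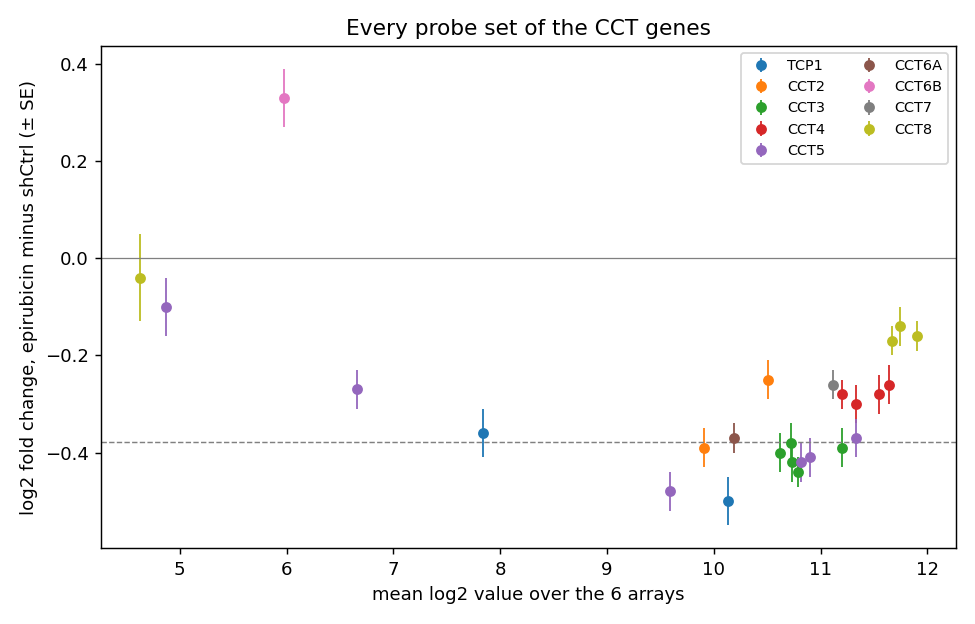
Each point is 1 of the 26 probe sets of the CCT genes, with its mean log2 value over the 6 arrays (horizontal axis) and its log2 fold change, epirubicin minus shCtrl, with limma's SE (vertical axis); the dashed line marks a 1.3-fold decrease. The bright probe sets lie between -0.50 and -0.14, with the 3 bright CCT8 probe sets nearest to 0 at the right edge, and CCT6B stands alone above 0.

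Upstream sequences were compared because 8 of the genes were lower and CCT6B was not. RefSeq windows (GRCh38.p14) matched 8 of the 9 genes, as 10 windows, all but CCT6A. The 250 bases before the start are given 5′ to 3′ on the gene's strand for TCP1 and CCT3, the called genes, for CCT8, with the smallest difference of the ring, and for CCT6B, with a difference of the other sign. All 4 lie on the minus strand, at chr6:159789603-159789852, chr1:156338293-156338542, chr21:29073649-29073898 and chr17:34961461-34961710. Capitals mark matches to the motifs searched on both strands, which were the CCAAT box (CCAAT), GC box (GGGCGG), E-box (CACGTG), heat shock element in its phases (GAANNTTC, TTCNNGAA), ETS core (CCGGAAG), cell cycle homology region (TTTGAA) and CRE core (TGACG).
TCP1: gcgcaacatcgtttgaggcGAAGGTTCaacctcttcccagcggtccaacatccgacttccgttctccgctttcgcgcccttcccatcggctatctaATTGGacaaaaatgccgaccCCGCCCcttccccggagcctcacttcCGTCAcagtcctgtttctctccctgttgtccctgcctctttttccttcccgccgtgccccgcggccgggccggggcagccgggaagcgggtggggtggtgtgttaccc
CCT3: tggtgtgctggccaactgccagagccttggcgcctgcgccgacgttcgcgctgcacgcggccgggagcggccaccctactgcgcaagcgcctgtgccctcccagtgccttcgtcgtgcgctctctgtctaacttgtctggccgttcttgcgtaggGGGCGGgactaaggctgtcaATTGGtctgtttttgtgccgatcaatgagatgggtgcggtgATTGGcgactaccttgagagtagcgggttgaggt
CCT8: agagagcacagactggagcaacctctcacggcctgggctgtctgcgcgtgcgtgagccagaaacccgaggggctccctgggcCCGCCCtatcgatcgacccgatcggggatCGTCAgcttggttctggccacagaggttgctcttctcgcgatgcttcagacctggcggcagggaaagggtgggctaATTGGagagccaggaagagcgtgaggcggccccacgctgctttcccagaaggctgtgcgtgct
CCT6B: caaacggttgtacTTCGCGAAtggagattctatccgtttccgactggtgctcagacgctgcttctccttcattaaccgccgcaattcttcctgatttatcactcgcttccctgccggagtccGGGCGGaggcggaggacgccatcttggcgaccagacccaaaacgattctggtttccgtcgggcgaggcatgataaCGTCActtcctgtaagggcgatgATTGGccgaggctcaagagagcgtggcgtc
Each of these windows holds a CCAAT box or its complement and a GC box, and TCP1, CCT8 and CCT6B also hold a CRE core. The promoter of CCT6B thus held the same 3 motifs as those of TCP1 and CCT8. A CCAAT box was found in 5 of the 10 windows of the family and in 32.0% of all 35116 windows, a GC box in 6 and 42.6%, and a CRE core in 6 and 21.2%. The windows with a CRE core belong to 5 of the 8 genes, as the overlapping windows of CCT4 hold the same site. The heat shock element GAANNTTC was in 2 of 10, those of TCP1 and one of the windows of CCT2, beside 5.78% of all windows, and its other phase TTCNNGAA in 1, that of CCT6B, beside 6.62%. The ETS core was in 1 window, of CCT2, next to a CRE core with no shared base, beside 8.52%. No matches overlapped within a window. The E-box and the cell cycle homology region were in 0 of 10, beside 6.34% and 13.3%. The windows of 1 gene can overlap, and a match of letters is not a binding site. One window of CCT2 and that of CCT5 lie wholly inside the gene as RefSeq places it, ending 430 and 616 bases past its start. The GAANNTTC match of CCT2 is in that inner window, not before the gene's RefSeq start.

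The partners that feed the ring had differences of both signs. Of the 6 genes of prefoldin, the hexamer that delivers actin and tubulin chains, 1 was called lower and 0 higher, and the median was -0.02. Over all genes tested, 2.14% were called lower and 4.36% higher. PFDN6 had 8.51, 8.55 and 8.61 in epirubicin arrays, against 9.06, 8.89 and 8.98 in shCtrl arrays (-0.42, SE 0.05). PFDN2 lay at -0.23 (SE 0.04), VBP1 at -0.07, PFDN1 at 0.03, PFDN4 at 0.08 and PFDN5 at 0.13 (SE 0.03). The prefoldin changes had both signs, with an SD of 0.21. The SD was 0.11 over the ring without CCT6B and 0.24 over all 9 CCT genes. PFDN2 and PFDN6, the beta-type subunits that prefoldin shares with the prefoldin-like complex around URI1, were the lowest pair. The other genes of that complex, URI1, UXT and PDRG1, were at -0.12, 0.05 and -0.08, with 0 of 3 called on the brightest probe set. Of the 2 probe sets of URI1, 1 was called lower.

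Cofactors and relatives came next, with counts to be read beside 2.14% of all genes called lower and 4.36% called higher. Of 5 genes of phosducin-like proteins and related cofactors 1 was called lower, PDCL2, at 2.08 in epirubicin arrays and 2.51 in shCtrl arrays, among the dimmest values of the arrays. This call ended with the replicate number as a block, and when any of epirubicin replicates 2 and 3 or shCtrl replicates 2 and 3 was left out, with 0 of 5 called in each case. PDCL3, which binds the ring, was at -0.20 (SE 0.04), PDCD5, which binds it too, at -0.15 (SE 0.04), PDCL at 0.11 and TXNDC9, a thioredoxin-like inhibitor, at 0.06. Of 4 chaperonin-like relatives, 0 were called: MKKS and BBS10, which help assemble the BBSome of cilia, lay at 0.00 and -0.05, BBS12 at 0.16 and CCT8L2 at 0.05. The tubulin cofactors, which take over tubulin after the ring, had 0 of 7 called, with TBCB at -0.27, TBCD at -0.17, ARL2 at -0.13, TBCA at -0.11, TBCE at -0.04, TBCC at 0.03 and TBCEL at 0.28.

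**Figure D3:**
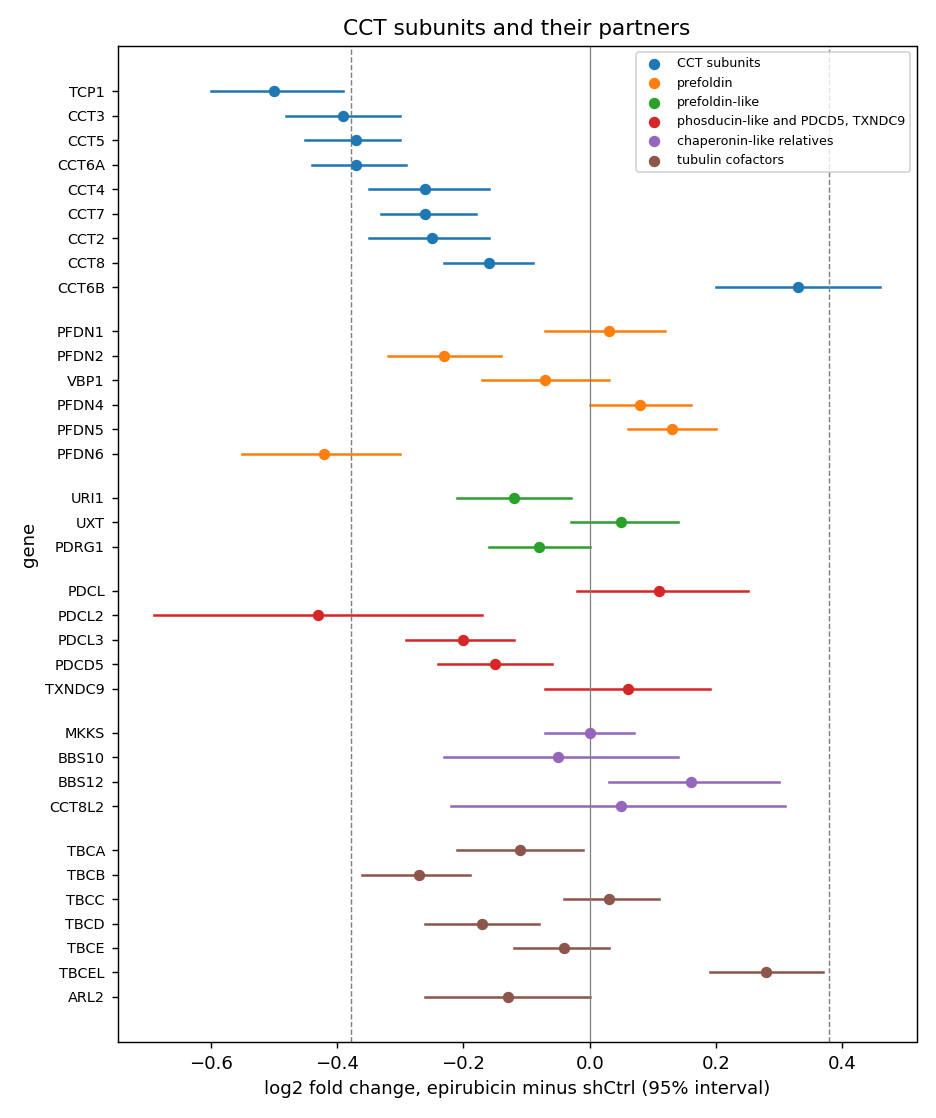
Log2 fold change, epirubicin minus shCtrl, with its 95% interval from limma for the 9 CCT genes and their partners (n = 3 arrays a group), dashed lines at 1.3-fold either way. The intervals of the 8 ring subunits lie below 0, those of prefoldin, the cofactors and the relatives fall on both sides, and CCT6B lies above 0.

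Clients were mixed as well. Their counts stand beside 2.14% of all genes called lower and 4.36% called higher. Of 14 measured tubulin genes 0 were called in either direction, with a range of -0.31 to 0.33 and a median of -0.06. Of 8 measured actin and actin-related genes 1 was called higher, ACTA2, at 5.98, 5.78 and 5.92 in epirubicin arrays, against 4.72, 4.58 and 3.73 in shCtrl arrays, where the third shCtrl array stood apart, and it was called on 1 of 3 probe sets. With dim genes left out, 0 actin genes were called. The list's median was -0.10. Of 18 WD40 and other clients 2 were called lower and 1 higher (median -0.10). CDC20, the activator of the anaphase-promoting complex whose folding in yeast depends on CCT, was at 6.82, 6.86 and 6.92 in epirubicin arrays, against 9.21, 9.12 and 9.12 in shCtrl arrays (-2.29, SE 0.04). The mitotic kinase gene PLK1 differed by -1.13 (SE 0.07) and STAT3, a transcription factor, by 0.55 (SE 0.04). Whether the changes of clients and ring are linked was not tested.

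Other chaperones were mostly lower. Of 16 measured genes 6 were called lower and 0 higher, beside 2.14% and 4.36% of all genes. This list, like those of partners and clients, was chosen with earlier results of these data known, so nothing is read from its count. All 16 had a log2 fold change below 0, as did 7760 of the 17534 genes tested, and the median was -0.33. The largest were CHORDC1 (-0.62, SE 0.05), FKBP4 (-0.57, SE 0.04) and STIP1 (-0.56, SE 0.04), all cochaperones of HSP90. The 20S proteasome, another ring of distinct subunits, had 0 of 13 measured genes called. Of these 13 genes 12 had a log2 fold change below 0. The median of this list was -0.17, the range -0.29 to 0.02 and the SD 0.11. Beside this, the SD was 0.11 over the CCT ring without CCT6B and 0.24 over all 9 CCT genes. Tubulin genes, dim ones included, had an SD of 0.20, and all genes 0.22. A log2 fold change within the range of the 8 subunits, -0.50 to -0.16, was found in 11.4% of all genes.

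**Figure D4:**
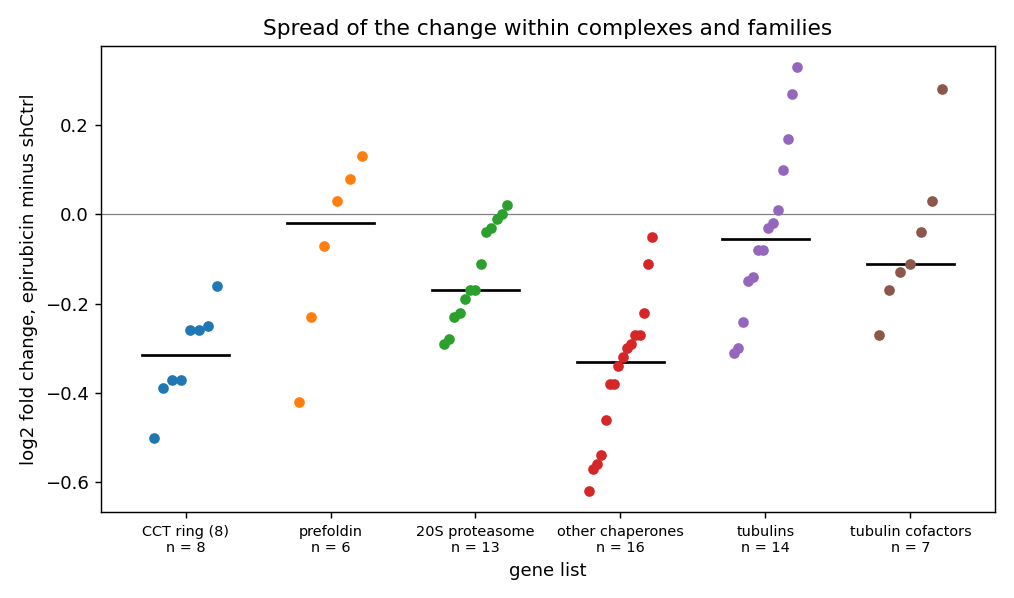
Log2 fold change, epirubicin minus shCtrl, of each measured gene (points, sorted within a list) in 6 lists, with a bar at the list's median. The 8 ring subunits (-0.50 to -0.16) and the 16 other chaperones lie wholly below 0, as do 12 of the 13 genes of the 20S proteasome (-0.29 to 0.02). Prefoldin, tubulins and tubulin cofactors spread to both sides.

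Across the 6 arrays, each of the 8 subunits correlated with the mean of the other 7 at Pearson r of 0.941 (CCT4) to 0.996 (CCT6A). With 2 groups, such values mostly restate the group difference: 1481 of the 17525 genes outside the family, 8.45%, correlated with the ring mean at more than 0.95. The 5 with the highest r, over 6 arrays, were WDR46 (0.9999), H4C3 (0.9997), CDC20 (0.9997), KIF20A (0.9996) and C8orf33 (0.9996). WDR46, a nucleolar protein of ribosome assembly, had a log2 fold change of -0.42, H4C3, a histone H4 gene, -0.30, KIF20A, a mitotic kinesin, -1.69, and C8orf33 -0.37. Likeness in shape was thus found over changes from -0.30 to -2.29, and the ranks within such a narrow span of r depend on small differences among 6 arrays.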

How the data were processed

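The authors' deposited log2 expression values, 1 per probe set and array, were used for 47481 probe sets on 6 PrimeView arrays (3 epirubicin, 3 shCtrl, by the sample titles). The values ran from 1.41 to 13.73, from which the log2 scale was inferred. The affy package, without a version, is named per the submitters' processing notes, and the steps of background correction, normalization and probe summary are not stated there. Medians of the arrays were 5.52 to 5.57 and no normalization was added, so a change common to all transcripts cannot be seen. Scanner files, detection calls and scan batches were not used here. Precision is limited by having 3 arrays a group.

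A single gene symbol was annotated for 43976 probe sets, several for 1558 and none for 1947; 43954 of the single ones matched RefSeq (GRCh38.p14) by Entrez number. The brightest probe set over the 6 arrays stood for each of 17534 genes. The test was limma's moderated linear model (version 3.58.1, R 4.3.3; no covariate) with Benjamini-Hochberg adjustment over all genes, at the thresholds of the series' design text (adjusted p under 0.05, fold of at least 1.3). The fit was tested on simulated data. The members and lists were chosen with earlier results of these data known. All 9 members are named; partner lists of up to 7 genes are named in full, longer ones by up to 3 called genes a direction, with 4 preset responders and the 5 genes most correlated with the ring mean. Alternatives were the mean of probe sets, unmarked probe sets only, quantile normalization, median centring, a filter on dim genes, a trended prior, the replicate block and leaving out each array.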

Additional observations from a re-analysis of the deposited data

How the results depend on the processing

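All 110 member log2 fold changes over 13 alternative settings kept their sign, and 103 kept their side of the call; the 4 that entered it were CCT5 and CCT6A and the 3 that left it were CCT3, all close to the fold limit. The count of members called lower, 2, was 4 with array median centring, 1 with quantile normalization, 0 of the 2 genes left when only probe sets without an a, s or x mark in their ID were used, and 1 to 3 when 1 array was left out. At any fold it was 8, with 1 higher. The family median was -0.32 as the mean of probe sets and -0.16 on unmarked probe sets, where fewer genes remain. The SD over the 8 subunits was 0.09 to 0.12, and the strong minus weak side -0.06 to -0.04, under probe set means, quantile normalization, the replicate block and leaving out 1 array. Neither could be computed on unmarked probe sets alone.

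With only unmarked probe sets, 240 genes were called higher and 160 lower, and the calls were 0 lower in prefoldin, 3 lower in the other chaperones, 0 lower in the WD40 and other clients and 0 higher in actin. With dim genes left out, the calls were 0 higher in actin and 0 lower in the phosducin-like list. That list's count was 0 to 1 when 1 array was left out and 0 with the replicate block. Same-numbered arrays did not deviate together (r of -0.06, 0.00 and -0.01), so the numbers were not taken as pairs. With the replicate block 2 members were called lower, and over all genes 755 higher and 372 lower. Fewer genes were in the fit where probe sets or dim genes were left out. The cause of these shifts was not tested.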
